A study of Rattus norvegicus with 24 samples.

Results

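RNA sequencing was read here in punches of the ventral tegmental area (VTA) from offspring of morphine-exposed and saline-exposed fathers. The 10 VTA libraries, chosen by their labelled brain region among the 24 libraries of the study, were 5 MOR-sired and 5 SAL-sired libraries, and every gene of the VTA table was examined. MOR-sired rats were F1 offspring, labelled male, of fathers that had self-administered morphine for 60 days, and SAL-sired rats were F1 offspring, also labelled male, of fathers that had self-administered saline for 60 days. Neither group is described as having received a drug itself. All were killed as adults at an age of at least 60 days, and the punches were taken from both sides of sectioned brains and frozen. The labels give neither strain nor animal nor litter for any library, so that every p refers to the spread among single libraries, and littermates could not be accounted for. The question was whether the father's morphine exposure left differences in VTA transcripts of the offspring.

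The VTA is a midbrain nucleus whose dopamine neurons project to the nucleus accumbens and the prefrontal cortex, and opioids act there through receptors on local and incoming inhibitory neurons. Dopamine neurons make their transmitter with tyrosine hydroxylase (Th) and recover it with the dopamine transporter (Slc6a3). Serotonin neurons lie in the neighbouring raphe nuclei and make their transmitter with tryptophan hydroxylase 2 (Tph2). Both hydroxylases need the cofactor tetrahydrobiopterin. A punch of a small nucleus also takes in some of the surrounding tissue, so the transcripts of neighbouring cell types were read beside each result.

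Library totals were 23.6 to 43.5 M estimated counts in MOR-sired VTA and 25.2 to 41.5 M in SAL-sired VTA (M for mega), and the libraries correlated with each other at 0.974 to 0.987. Levels are given as counts per 1 M counts (CPM) scaled with TMM factors (TMM-scaled CPM), which derive from length-normalised abundances and can be set side by side between genes. In 4 libraries labelled male, MOR-sired 3, 4 and 5 and SAL-sired 5, the transcript Xist of the inactive X chromosome stood at 78.4 to 103 CPM and the Y-linked Ddx3y at 0 to 0.0756 CPM. In the other 6 libraries Xist stood at 0 to 0.232 CPM and Ddx3y at 45.5 to 55.4 CPM. Those 4 libraries go against their label and are spread unevenly over the groups, so results are also given without them, which leaves MOR-sired 1 and 2 against SAL-sired 1, 2, 3 and 4. Ribosomal and 7SL RNA took 11.9% of MOR-sired 2 and 5.11% of MOR-sired 4, and 0.107% to 0.658% of the other libraries.

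The dopamine transcripts of the punches were abundant in both groups, whereas the serotonin transcript Tph2 was higher in all 5 MOR-sired libraries. Tph2 stood at 155, 165, 59.3, 150.0 and 73.0 CPM in MOR-sired VTA 1 to 5, and at 14.6, 54.1, 0.542, 0.329 and 45.1 CPM in SAL-sired VTA 1 to 5. The groups did not overlap, although SAL-sired 2 lay close below MOR-sired 3, and SAL-sired 3 and 4 held almost no Tph2. On log2(CPM + 1) Tph2 averaged 6.76 ± 0.62 in MOR-sired and 3.29 ± 2.61 in SAL-sired VTA (SD, n = 5 each), a difference of 3.47. The 2-sided exact permutation test gave p = 0.00794, the smallest that 5 against 5 libraries can give (0.0317 adjusted over the 4 measures tested this way). Leaving out any 1 of the 5 MOR-sired libraries left differences of 3.34 to 3.68 but ended this call (adjusted p of 0.127 to 0.159 by the same exact permutation test). Leaving out any 1 SAL-sired library left 2.76 to 4.11 and an adjusted exact permutation p of 0.0317. Without the 4 libraries with Xist the difference was 4.49 (exact permutation p = 0.133, where 2 libraries against 4 cannot go below 0.0667). Among all genes, edgeR's quasi-likelihood test did not call Tph2 (log2 fold change 2.40, SE 1.03, adjusted p = 0.928). Tph2 was set as a measure with earlier results of these data known, and the exact permutation p does not take that choice into account. In bulk punches, more serotonin neurons and more Tph2 RNA per neuron cannot be told apart.

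Th stood at 2085, 1647, 2616, 2946 and 2414 CPM in MOR-sired VTA 1 to 5, and at 2236, 1691, 1223, 1467 and 2859 CPM in SAL-sired VTA 1 to 5. The groups overlapped over most of their range, and the lowest values were those of SAL-sired 3 and 4, the libraries with almost no Tph2. The difference on the log2 scale was 0.26 (exact permutation p = 0.389), 0.12 to 0.42 without single libraries and 0.036 without the 4 libraries with Xist. Slc6a3 stood at 1262 to 2078 CPM in MOR-sired and 827 to 2101 CPM in SAL-sired VTA, with a difference of 0.12 (exact permutation p = 0.69). Both defining markers of the labelled tissue were thus abundant in all 10 libraries, with SAL-sired 3 lowest for each.

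**Figure D1:**
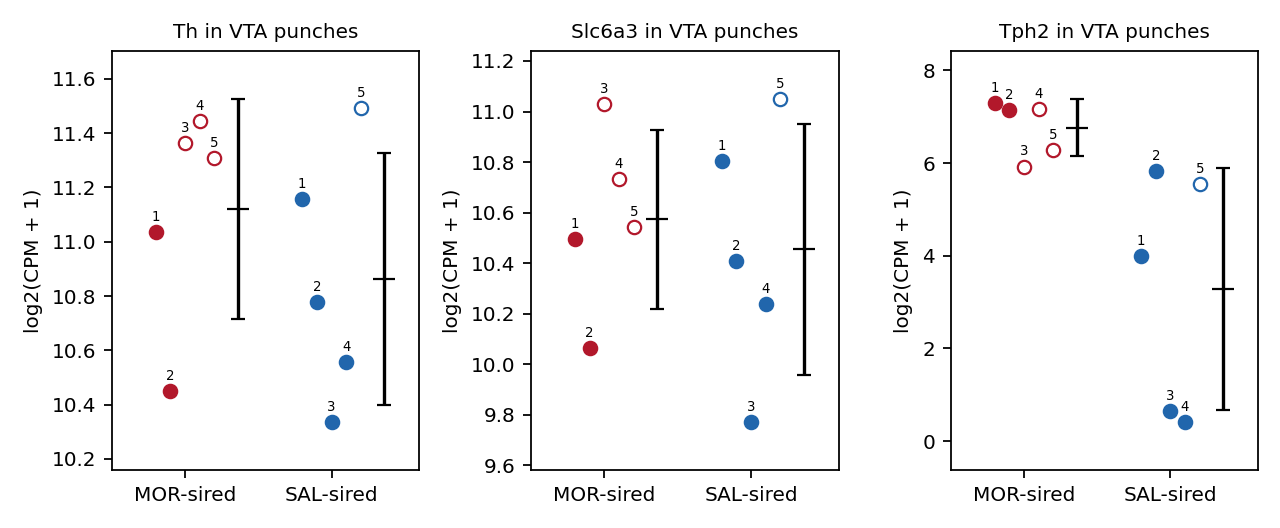
Levels of Th, Slc6a3 and Tph2 as log2(CPM + 1) in each VTA library, MOR-sired in red and SAL-sired in blue, numbered by replicate, with open circles for the 4 libraries with Xist and black bars for mean ± SD (n = 5 each). The 5 MOR-sired libraries all sit above the 5 SAL-sired ones for Tph2, while the groups overlap for Th and Slc6a3.

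The promoter of Tph2 is shown with those of Gchfr and Cited1, the genes described next, because all 3 stood higher in every MOR-sired library and carry the results that follow. Each run gives the 250 bases before the transcription start from RefSeq on assembly GRCr8, read 5′ to 3′ on the gene's own strand. Capitals mark GATAA, the core bound by GATA factors, and TATAAA, the TATA box. These were searched on both strands, and the 2 motifs share no bases here.
Tph2, chr7:52675640-52675889, minus strand: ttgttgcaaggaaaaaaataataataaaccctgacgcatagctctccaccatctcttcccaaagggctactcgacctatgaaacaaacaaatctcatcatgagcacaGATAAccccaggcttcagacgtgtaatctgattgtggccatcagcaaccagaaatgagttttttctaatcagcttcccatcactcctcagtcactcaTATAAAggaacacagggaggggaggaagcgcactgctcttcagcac
Gchfr, chr3:126611642-126611891, plus strand: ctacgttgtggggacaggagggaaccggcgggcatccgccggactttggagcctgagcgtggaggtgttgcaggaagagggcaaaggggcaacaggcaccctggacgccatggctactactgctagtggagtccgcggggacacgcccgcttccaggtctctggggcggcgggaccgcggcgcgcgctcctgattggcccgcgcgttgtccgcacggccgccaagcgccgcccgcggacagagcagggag
Cited1, chrX:71395024-71395273, minus strand: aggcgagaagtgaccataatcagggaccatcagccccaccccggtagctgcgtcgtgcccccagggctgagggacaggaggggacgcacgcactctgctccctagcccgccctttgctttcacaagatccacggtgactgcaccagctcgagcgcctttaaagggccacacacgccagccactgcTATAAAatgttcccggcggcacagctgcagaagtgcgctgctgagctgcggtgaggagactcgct
The Tph2 window held 1 GATAA and 1 TATAAA, the Cited1 window 1 TATAAA, and the Gchfr window neither. GATAA occurs in 23.5% and TATAAA in 12.9% of the 33469 promoter windows of this length, so each match is common and is given as a description of these letters.

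Across all genes, no transcript differed between MOR-sired and SAL-sired VTA at an adjusted p under 0.05 in the main edgeR test. The edgeR quasi-likelihood test called 0 of 19923 genes (0%), and Cited1 had its smallest adjusted p, 0.223. Unadjusted p-values under 0.05 numbered 1058 (5.31%), with 547 genes higher (2.75%) and 511 genes lower (2.56%) in MOR-sired VTA. With scaling by total count alone, where the median log2 fold change of all genes was -0.09 in place of -0.0065, the split was 191 higher and 1276 lower. limma-voom with sample quality weights also called 0 genes, with 1048 at an unadjusted p under 0.05. DESeq2, given the genes that edgeR had kept, called 27 of 19902 (0.136%), with 20 higher and 7 lower. Of the genes named below, it called Cited1, Stk32b, Rhog, Zyx, Gchfr, Gata2, Htr5b, Cryba2, Sox10, Tyrobp and Arpp21. It also called Gstm6, Lhpp, Rflna, Wnt4, Col6a2, H3f3a-ps9, Rn45sl1 and Rn7sl1. The 5 MOR-sired values lay above all 5 SAL-sired values for 110 genes (0.552%) and below all of them for 71 genes (0.356%). The column headers carry library numbers, whose meaning is not given. A split at the first gap in these numbers sets MOR-sired 3, 4 and 5 and SAL-sired 4 and 5 apart from the rest. With it as a covariate edgeR still called 0 genes and counted 1146 at an unadjusted p under 0.05. Except for SAL-sired 4 this split is the same as that by Xist, so Xist and library number cannot be told apart within MOR-sired VTA.

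Cited1, which encodes a coactivator that binds CBP and p300, was the gene of smallest p. It stood at 13.0, 11.5, 9.79, 11.0 and 11.4 CPM in MOR-sired VTA 1 to 5, and at 4.36, 6.64, 5.23, 5.57 and 6.73 CPM in SAL-sired VTA 1 to 5. The groups did not overlap, and both were tight. The fold was 1.99 (95% interval 1.64 to 2.41) with a log2 fold change of 0.99 (SE 0.13) by edgeR. It was 1.17 on the log2 scale without the 4 libraries with Xist and 0.80 with the Tph2 level as a covariate. DESeq2 called Cited1 at an adjusted p of 5.37e-09, while edgeR (adjusted p = 0.223) and limma-voom (0.21) did not. Cited1 lies on chromosome X, where 28 of 633 tested genes had an unadjusted p under 0.05 by edgeR (4.42%), namely 9 genes with higher (1.42%) and 19 genes with lower (3%) MOR-sired levels.

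Stk32b, a serine/threonine kinase gene, stood at 7.79, 9.34, 6.01, 6.56 and 6.40 CPM in MOR-sired VTA 1 to 5. In SAL-sired VTA 1 to 5 it stood at 3.39, 3.89, 3.17, 4.37 and 4.91 CPM. The groups did not overlap, with MOR-sired 2 highest and SAL-sired 3 lowest, and the log2 fold change was 0.87 (SE 0.16, edgeR adjusted p = 0.793). Rhog, a small GTPase that acts on Rac and the actin cytoskeleton, had 159 to 183 CPM in MOR-sired and 138 to 145 CPM in SAL-sired VTA (log2 fold change 0.26, SE 0.05). Zyx, a focal adhesion protein, had 31.9 to 33.6 CPM in MOR-sired and 24.5 to 29.2 CPM in SAL-sired VTA (0.25, SE 0.05). These small differences stood out by their narrow spread within each group. Of the 25 tested genes of the actin and adhesion list, 3 were higher at an unadjusted p under 0.05 (Rhog, Zyx and the haematopoietic GTPase Rac2) and 0 were lower (2.75% and 2.56% of all genes), with a list median of 0.03 on the log2 scale against -0.0065 over all genes.

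The remaining genes among the 24 of smallest p all had an edgeR adjusted p of 0.793. Higher in every MOR-sired library were the glutathione transferase Gstm6 (log2 fold change 0.50), the phosphatase Lhpp (0.23), the lysosomal arylsulfatase Arsa (0.22), Wbp1 (0.17), Pbld1 (0.24) and the aminopeptidase-like Rnpepl1 (0.20). Lower in every MOR-sired library were Rflna, a filamin-binding protein (-0.67), Vmo1 (-0.78) and the translation inhibitor Pdcd4 (-0.18). The signalling ligand Wnt4 (-1.16) and Medag, at 0.846 to 1.26 CPM in MOR-sired and 1.21 to 2.89 CPM in SAL-sired VTA, had lower MOR-sired means, and their groups overlapped. H3f3a-ps9 had 1.23 to 3.60 CPM in MOR-sired and 2.70 to 19.8 CPM in SAL-sired VTA (-2.44, SE 0.49), but it is an annotated pseudogene of a histone gene whose reads may be shared with its parent, so its value is uncertain. Rn45sl1 had 4.82 to 46.5 CPM in MOR-sired and 2.24 to 4.15 CPM in SAL-sired VTA. Its 2 highest values were in MOR-sired 2 and 4, the libraries with the largest ribosomal and 7SL shares, and the part of that share in the result was not tested. The 7SL RNA gene Rn7sl1 reached 12222 and 6074 CPM in those 2 libraries and 53.2 to 577 CPM in the others.

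**Figure D2:**
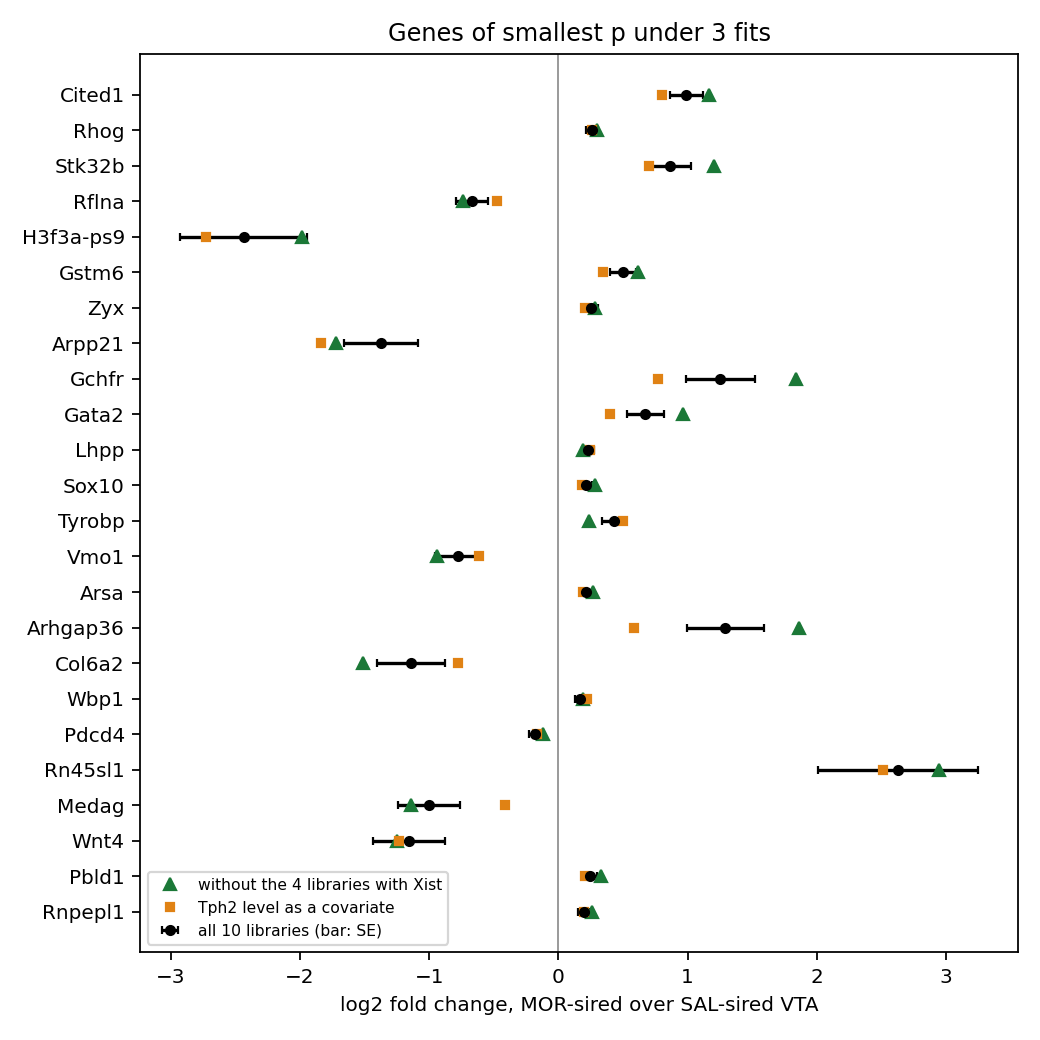
The log2 fold change (MOR-sired over SAL-sired) of the 24 genes of smallest p, with black points and SE bars for all 10 libraries, green triangles without the 4 libraries with Xist and orange squares with the Tph2 level as a covariate. All 24 keep their sign under the 3 fits, and Arhgap36, Medag and Gchfr move furthest towards 0 when Tph2 enters.

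Gchfr, the feedback regulator of the first enzyme of tetrahydrobiopterin synthesis, was among the genes of larger change. It stood at 59.4, 57.0, 27.1, 43.2 and 32.8 CPM in MOR-sired VTA 1 to 5, and at 13.0, 21.3, 13.0, 17.7 and 26.8 CPM in SAL-sired VTA 1 to 5. The groups did not overlap, but MOR-sired 3 and SAL-sired 5 almost met, and the 3 MOR-sired libraries with Xist were the 3 lowest of their group. The fold was 2.39 (95% interval 1.58 to 3.60, edgeR adjusted p = 0.793). Its log2 fold change was 1.25 (SE 0.27), 1.84 without the 4 libraries with Xist, and 0.77 with the Tph2 level as a covariate. Since Tph2 itself separated the groups, a difference that goes with serotonin content and one that goes with the sire cannot be told apart in these libraries. Gch1, the enzyme that Gchfr restrains, had 105 to 133 CPM in MOR-sired and 45.5 to 126 CPM in SAL-sired VTA (log2 fold change 0.47, SE 0.22, edgeR adjusted p = 0.949), and -0.056 was fitted with the Tph2 level as a covariate. Of the 8 genes of tetrahydrobiopterin synthesis and recycling, 1 was higher at an unadjusted p under 0.05 (2.75% of all genes), Gchfr, and 0 were lower, with a median of 0.06.

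The serotonin neuron list held further genes that went with Tph2. Of its 14 tested members 6, Tph2 among them, were higher at an unadjusted p under 0.05 by edgeR (2.75% of all genes). The 1 lower member at that threshold was the receptor gene Crhr2 (2.56% of all genes). No member was called by edgeR, and the median log2 fold change was 0.34 against -0.0065 over all genes. Slc6a4, the serotonin transporter, stood at 97.1, 106, 37.1, 90.7 and 42.5 CPM in MOR-sired VTA 1 to 5, and at 10.8, 33.3, 0.155, 0.164 and 27.7 CPM in SAL-sired VTA 1 to 5. Its libraries kept nearly the order they had for Tph2, and the groups did not overlap (log2 fold change 2.38, SE 1.04, edgeR adjusted p = 0.932), but with the Tph2 level as a covariate the change took a negative sign (-0.48). Fev, the transcription factor that maintains serotonin neuron identity, had 2.70 to 10.5 CPM in MOR-sired and 0.206 to 3.04 CPM in SAL-sired VTA, with SAL-sired 2 above MOR-sired 3 (2.50, SE 0.73). Htr5b, a serotonin receptor gene, had 0.846 to 2.08 CPM in MOR-sired and 0.103 to 0.623 CPM in SAL-sired VTA, without overlap (2.08, SE 0.46). DESeq2 called Htr5b (adjusted p = 0.0228) and edgeR did not (0.793). Given all genes, DESeq2 also called Fev. Slc22a3, a low-affinity monoamine transporter, had 0.897 to 3.24 CPM in MOR-sired and 0.701 to 1.50 CPM in SAL-sired VTA (1.01, SE 0.37). The summed level of the list ran from 174 to 382 CPM in MOR-sired and from 77.0 to 178 CPM in SAL-sired VTA, and its groups overlapped. The median of the list was 0.79 without the 4 libraries with Xist, 0.22 without SAL-sired 1 and 2, 0.19 with the Tph2 level as a covariate and 0.18 with Th and Tph2.

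Other genes outside that list had a similar order of libraries. Otp, a homeobox factor of hypothalamic neuron development, had 5.03 to 15.2 CPM in MOR-sired and 0.0516 to 4.69 CPM in SAL-sired VTA (log2 fold change 2.72, SE 0.93). With the Tph2 level as a covariate its change was 0.33. The neuropeptide Gal stood at 15.9, 12.9, 3.61, 16.8 and 7.70 CPM in MOR-sired VTA 1 to 5, and at 2.06, 4.44, 2.01, 0.940 and 5.27 CPM in SAL-sired VTA 1 to 5. Only MOR-sired 3 lay within the SAL-sired range for Gal (1.95, SE 0.52, and 0.75 with Tph2 as a covariate). Arhgap36, an X-linked inhibitor of protein kinase A, had 20.8 to 46.4 CPM in MOR-sired and 8.97 to 19.9 CPM in SAL-sired VTA, without overlap (1.29, SE 0.30, and 0.58 with Tph2). Cryba2, a crystallin gene, had 0.708 to 4.00 CPM in MOR-sired and 0 to 0.832 CPM in SAL-sired VTA, and DESeq2 called it (adjusted p = 0.0347) where edgeR did not (0.793).

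**Figure D3:**
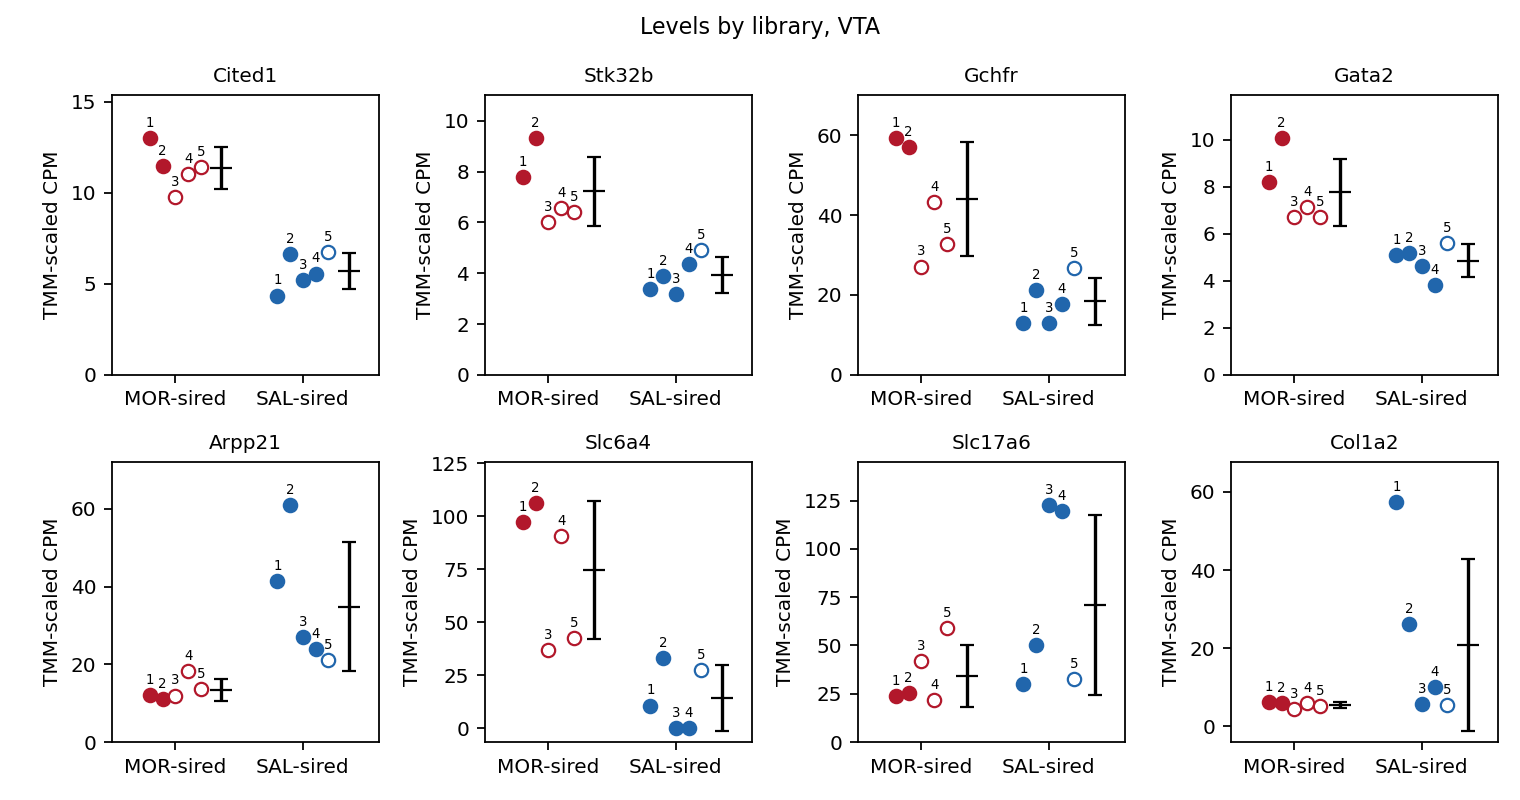
TMM-scaled CPM by library for 8 genes, MOR-sired in red and SAL-sired in blue, numbered by replicate, with open circles for the 4 libraries with Xist and black bars for mean ± SD (n = 5 each). Cited1, Stk32b, Gchfr, Gata2 and Slc6a4 are higher in every MOR-sired library, Arpp21 is lower in every one, Slc17a6 is highest in SAL-sired 3 and 4, and Col1a2 is highest in SAL-sired 1 and 2.

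Some transcription factors of midbrain inhibitory neurons had higher values in MOR-sired VTA. Gata2, which selects the GABA fate in the mouse midbrain, stood at 8.20, 10.1, 6.70, 7.13 and 6.70 CPM in MOR-sired VTA 1 to 5, and at 5.10, 5.17, 4.64, 3.80 and 5.60 CPM in SAL-sired VTA 1 to 5. The groups did not overlap, and the highest value was in MOR-sired 2. The log2 fold change was 0.67 (SE 0.14) by edgeR (adjusted p = 0.793), 0.97 without the 4 libraries with Xist and 0.40 with the Tph2 level as a covariate. Of the 17 tested members of the midbrain GABA neuron list 14 had a higher mean (47.4% of all genes did). At an unadjusted p under 0.05, 4 were higher (2.75% of all genes) and 0 were lower (2.56%). The median was 0.29 (-0.0065 over all genes) and 0.12 with the Tph2 level as a covariate. Beside Gata2 these were Gata3 (0.68, SE 0.24), which serotonin neurons also use and which stands in both lists, Sox14 (0.83, SE 0.30) and Nkx2-2 (0.29, SE 0.12). Gad1, which makes GABA, had 88.6 to 154 CPM in MOR-sired and 54.6 to 109 CPM in SAL-sired VTA (0.44, SE 0.23), and -0.16 was fitted with the Tph2 level as a covariate. The summed level of the list overlapped, at 1297 to 1484 CPM in MOR-sired and 1169 to 1612 CPM in SAL-sired VTA.

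Genes of dopamine neurons did not separate the groups. Of the 23 tested members of the dopamine list 18 had a higher mean in MOR-sired VTA (47.4% of all genes did), 0 had an unadjusted p under 0.05, and the largest log2 fold change was 0.35. Ddc, which completes dopamine and serotonin synthesis, had 626 to 851 CPM in MOR-sired and 398 to 873 CPM in SAL-sired VTA (0.22, SE 0.20). Slc18a2, which loads monoamines into vesicles, had 495 to 673 CPM in MOR-sired and 305 to 705 CPM in SAL-sired VTA (0.19, SE 0.22). Drd2, the autoreceptor of these neurons, had 118 to 176 CPM in MOR-sired and 75.9 to 188 CPM in SAL-sired VTA (0.24, SE 0.22). For all 3 the extremes of both ends were SAL-sired libraries, with SAL-sired 3 lowest and SAL-sired 5 highest. With the Tph2 level as a covariate, which itself separated the groups, the changes of Ddc, Slc18a2 and Drd2 took a negative sign (-0.27, -0.36 and -0.19).

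Opioid receptors and peptides, the direct targets of morphine and its endogenous counterparts, likewise showed no gene called by edgeR. In the opioid list, DESeq2 called Cpe when given all genes. Oprm1, the mu opioid receptor through which morphine acts, stood at 3.35, 3.80, 3.45, 3.20 and 3.49 CPM in MOR-sired VTA 1 to 5. In SAL-sired VTA 1 to 5 it stood at 2.30, 3.05, 4.26, 5.14 and 2.32 CPM. The MOR-sired values all fell inside the SAL-sired range, with means of 3.46 ± 0.22 CPM in MOR-sired and 3.41 ± 1.25 CPM in SAL-sired VTA (SD, n = 5 each) and a fold of 1.01 (95% interval 0.715 to 1.43). The log2 fold change of 0.02 took a negative sign with total-count scaling (-0.07), without SAL-sired 1 and 2 (-0.18) and without the 4 libraries with Xist (-0.05). The kappa receptor Oprk1 (fold 1.06, 0.835 to 1.36), the delta receptor Oprd1 (0.797, 0.415 to 1.53) and the nociceptin receptor Oprl1 (0.941, 0.818 to 1.08) had intervals that include 1. Among the peptide precursors, Penk (enkephalin) had 35.1 to 66.2 CPM in MOR-sired and 23.4 to 52.2 CPM in SAL-sired VTA (fold 1.38, 0.969 to 1.98), and Pdyn (dynorphin) had a fold of 1.02 (0.619 to 1.68). Pnoc, the nociceptin precursor, had 29.7 to 74.5 CPM in MOR-sired and 12.4 to 38.8 CPM in SAL-sired VTA (fold 1.82, 1.15 to 2.86, edgeR adjusted p = 0.869). Cpe, which trims neuropeptide precursors, had 1289 to 1463 CPM in MOR-sired and 1542 to 1732 CPM in SAL-sired VTA, without overlap (fold 0.864, 0.787 to 0.949, edgeR adjusted p = 0.793). Pnoc and Cpe were the 2 of 26 tested genes of the opioid system with an unadjusted p under 0.05 (5.31% of all genes), 1 in each direction.

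Arpp21, a cAMP-regulated phosphoprotein of striatal and cortical neurons, was lower in every MOR-sired library. It stood at 12.1, 11.0, 12.0, 18.3 and 13.7 CPM in MOR-sired VTA 1 to 5, and at 41.5, 61.0, 27.0, 23.8 and 21.0 CPM in SAL-sired VTA 1 to 5. SAL-sired 2 and 1 were the highest, and MOR-sired 4 came nearest to the SAL-sired range. The log2 fold change was -1.37 (SE 0.29, edgeR adjusted p = 0.793) and -0.83 without SAL-sired 1 and 2, and DESeq2 called the gene (adjusted p = 0.00113). All 8 tested members of the cortical and hippocampal glutamatergic list had a lower MOR-sired mean, whereas 47.4% of all genes had a higher one. Of these 8, 2 were lower at an unadjusted p under 0.05 (2.56% of all genes). The median of the 8 was -0.75, against -0.03 without SAL-sired 1 and 2. Tbr1, a transcription factor of cortical projection neurons, was at 0.171 to 0.999 CPM in MOR-sired VTA, at 16.5 CPM in SAL-sired 2 and at 0.101 to 0.779 CPM in the other SAL-sired libraries. The summed level of that list was 41.4 to 57.3 CPM in MOR-sired VTA, 183 CPM in SAL-sired 2 and 38.2 to 63.4 CPM in the other SAL-sired libraries. The part of these neurons in the Arpp21 result was not tested.

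Slc17a6, the vesicular glutamate transporter of subcortical neurons, was highest in the libraries with the least Tph2. It stood at 23.7, 25.4, 41.7, 21.7 and 59.2 CPM in MOR-sired VTA 1 to 5, and at 29.8, 50.4, 123, 120 and 32.7 CPM in SAL-sired VTA 1 to 5. Apart from SAL-sired 3 and 4 the groups overlapped (log2 fold change -1.05, SE 0.46, edgeR adjusted p = 0.934). The same 2 libraries were highest for the neuropeptide Cartpt, at 36.4 and 46.0 CPM, and for the receptor Crhr2, at 1.99 and 1.71 CPM. With the Tph2 level as a covariate the changes of these 3 genes took a positive sign, at 0.29, 0.23 and 0.12. Slc17a6 did not stand for its list, the subcortical glutamatergic one. Of the 11 tested members 6 had a higher and 5 a lower mean. At an unadjusted p under 0.05 by edgeR, 2 were higher (2.75% of all genes), Lhx5 and Irx3. Only Slc17a6 was lower at that threshold (2.56%), and the list's median was 0.0085.

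Transcripts of peripheral nerve and of fibroblasts were high in SAL-sired 1 and 2. Prx, a protein of Schwann cells, was at 1.12 to 1.35 CPM in MOR-sired VTA, at 11.8 and 4.95 CPM in SAL-sired 1 and 2, and at 1.01 to 1.52 CPM in the other SAL-sired libraries. Collagen I was distributed alike, with Col1a2 at 4.44 to 6.16 CPM in MOR-sired VTA, at 57.3 and 26.1 CPM in SAL-sired 1 and 2, and at 5.47 to 9.98 CPM in SAL-sired 3 to 5. The log2 fold change of Prx was -1.73 (SE 0.67, edgeR adjusted p = 0.917) in all libraries and 0.05 without SAL-sired 1 and 2, and that of Col1a2 was -1.91 (SE 0.62) and -0.35. Col1a1, Col3a1, the growth factor Igf2, the glutathione transferase Gstm2 and the epithelial channel Kcnj13 also had their 2 highest values in these libraries. Ttr, the transthyretin made by choroid plexus, was at 2.28 to 6.59 CPM in MOR-sired VTA, at 38.9, 19.9 and 42.5 CPM in SAL-sired 1, 2 and 4, and at 5.21 and 4.34 CPM in SAL-sired 3 and 5. Col6a2, a collagen VI chain, kept a lower mean without SAL-sired 1 and 2 (log2 fold change -1.14 in all libraries and -0.94 without them), and only SAL-sired 5 lay in its MOR-sired range. In the lists, 4 of 17 mural cell and fibroblast genes, 2 of 11 choroid plexus genes and 2 of 7 Schwann cell genes were lower at an unadjusted p under 0.05 (2.56% of all genes), and 0, 0 and 1 were higher (2.75%), the 1 being Sox10.

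Genes of oligodendrocytes, which myelinate central axons, had slightly higher means in MOR-sired VTA. Of 17 tested, 15 had a higher mean (47.4% of all genes), 5 had an unadjusted p under 0.05, all higher (2.75% of all genes), and none was called by edgeR. Sox10, the transcription factor of this lineage, had 108 to 121 CPM in MOR-sired and 91.9 to 104 CPM in SAL-sired VTA, without overlap (fold 1.16, 1.08 to 1.24, edgeR adjusted p = 0.793). The other 4 were Myrf (log2 fold change 0.18), Hapln2 (0.24), Mag (0.20) and Mobp (0.25). Mag was at 813 and 810 CPM in MOR-sired 1 and 2, at 625 to 694 CPM in MOR-sired 3 to 5 and at 617 to 634 CPM in SAL-sired VTA. Its difference thus lay mostly in the 2 MOR-sired libraries without Xist, which are also those of lower library number. Accordingly the list's median was 0.08 in all libraries and 0.30 without the 4 libraries with Xist. Tyrobp, a signalling adaptor of microglia, had 39.2 to 58.5 CPM in MOR-sired and 33.2 to 37.2 CPM in SAL-sired VTA, without overlap (fold 1.35, 1.17 to 1.55, edgeR adjusted p = 0.793). Its change was 0.43 on the log2 scale (SE 0.09) and 0.24 without the libraries with Xist. It was the 1 gene of 17 tested microglial genes with an unadjusted p under 0.05, near the share of all genes (5.31%), and 15 of the 17 had a higher mean in MOR-sired VTA (47.4% of all genes).

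**Figure D4:**
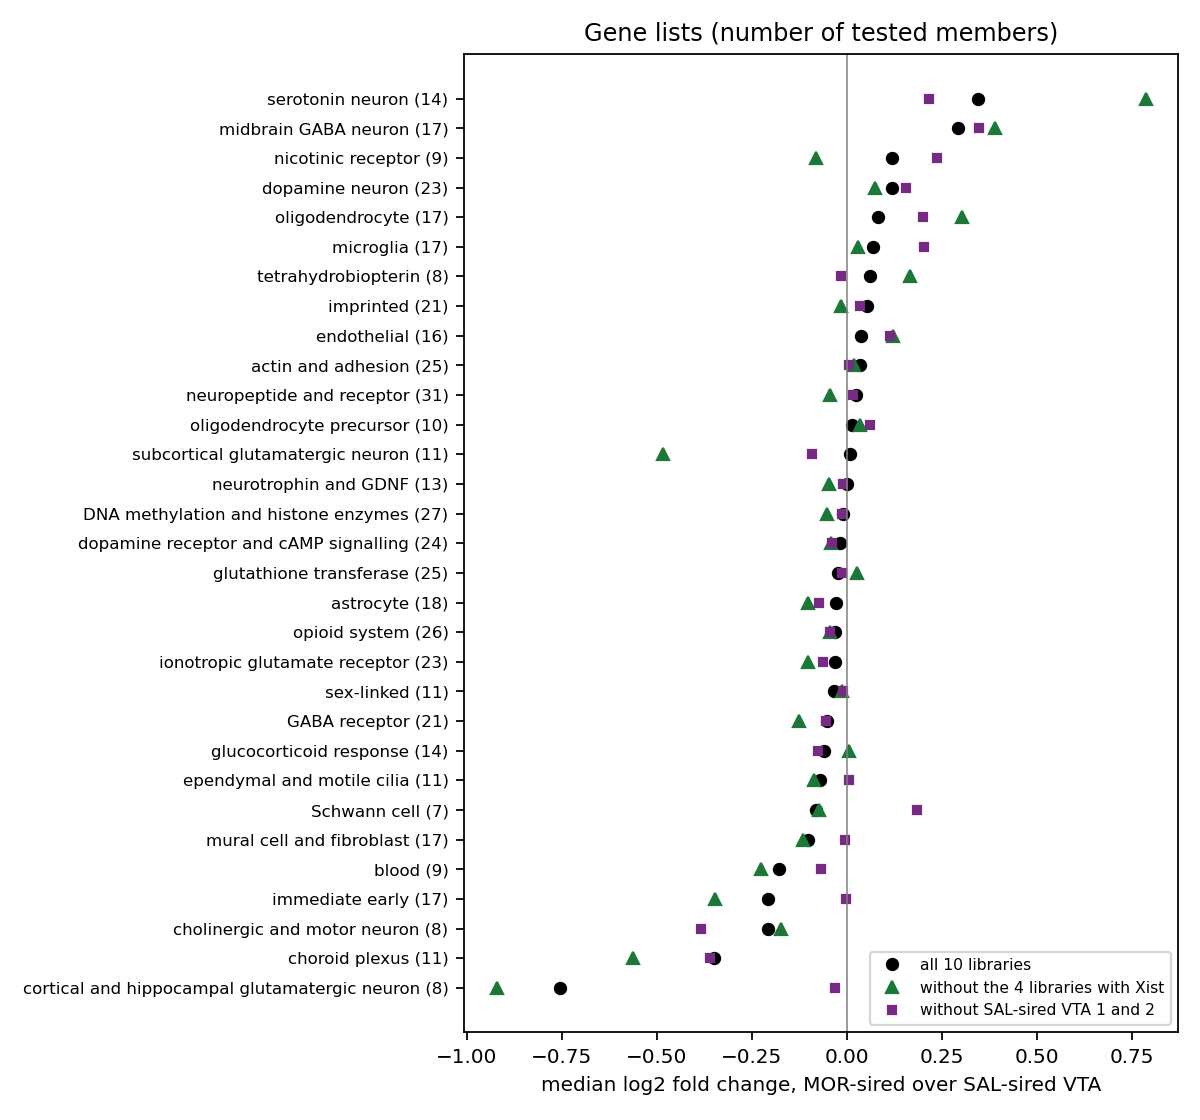
Median log2 fold change (MOR-sired over SAL-sired) of each of 31 gene lists, with the number of tested members in brackets, in all 10 libraries (black), without the 4 libraries with Xist (green) and without SAL-sired 1 and 2 (purple). The serotonin neuron list has the highest median (0.34) and the cortical and hippocampal list the lowest (-0.75), and the lowest one moves to -0.03 without SAL-sired 1 and 2.

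Receptor, peptide and regulatory lists held no gene that edgeR called, while DESeq2 given all genes called the neuropeptide Gal. Genes past an unadjusted p of 0.05 by edgeR made up 5.31% of all genes. They made up more of several lists, among them the GABA receptor, neuropeptide and imprinted lists, and less of others. Among 21 GABA receptor and transport genes 2 were higher, the X-linked subunits Gabre (log2 fold change 0.56, SE 0.17) and Gabrq (0.77, SE 0.27), and 3 were lower, among them Gabrb2 (-0.18). Of 31 neuropeptide genes and their receptors 3 were higher and 3 lower, with the vasopressin receptor Avpr1a higher in every MOR-sired library (0.40, SE 0.12). Of 24 genes of dopamine receptors and cAMP signalling 1 was higher, the stimulatory G protein Gnas, at 2091 to 2292 CPM in MOR-sired and 1692 to 2075 CPM in SAL-sired VTA (0.21, SE 0.07). Gnas also stands in the imprinted list, where the paternally expressed Peg10 was higher (0.41, SE 0.12) and Igf2 lower (-1.01, SE 0.43), a value that rested on SAL-sired 1 and 2 (-0.07 without them). Among 13 neurotrophin and GDNF genes 1 was higher, Ntf3 (0.46), and 1 was lower, while Bdnf had a fold of 0.908 (95% interval 0.743 to 1.11). Of 17 immediate early genes, which mark recent neuronal activity, 4 had a higher mean (47.4% of all genes did) and 13 a lower one. Only Egr3, with a lower mean, had an unadjusted p under 0.05. Egr3 was at 0.200 to 0.401 CPM in MOR-sired VTA, at 10.7 CPM in SAL-sired 2 and at 0.202 to 0.584 CPM in the other SAL-sired libraries, and the list's median of -0.21 was -0.0021 without SAL-sired 1 and 2. Fos had a fold of 0.913 (0.605 to 1.38). Of 27 enzymes and readers of DNA methylation and histone marks, 0 had an unadjusted p under 0.05, and their changes ran from -0.18 to 0.10. The glucocorticoid list had 1 such gene of 14, Fkbp5, lower at -0.27, and the astrocyte list 1 of 18, Aldh1l1, lower at -0.24. Endothelial (16), blood (9), nicotinic receptor (9), oligodendrocyte precursor (10), ependymal (11) and sex-linked genes (11 tested) had none.

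By size alone, the 10 largest changes among genes whose groups did not overlap also held 2 small RNA genes, Snord71 and Mir3555, the keratin Krt8 and Speer4cl1. Snord71 was listed at 0 CPM in MOR-sired 1, 2, 4 and 5, at 4.34 CPM in MOR-sired 3, and at 4.49 to 15.9 CPM in SAL-sired VTA. Mir3555 was listed at 0 CPM in MOR-sired 1, 2 and 4, and at 2.97 and 2.90 CPM in MOR-sired 3 and 5, against 3.38 to 10.3 CPM in SAL-sired VTA. Such short transcripts receive large values from few reads in length-normalised counts, so each may rest on very few reads. Krt8 had 0.503 to 0.799 CPM in MOR-sired and 0.857 to 3.66 CPM in SAL-sired VTA, with SAL-sired 1 and 2 highest (log2 fold change -1.31, and -0.53 without these).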

How the data were processed

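Total RNA of VTA punches was sequenced with a directional kit, per the labels' protocols. The authors deposited 1 VTA table of estimated counts per gene, which its name describes as scaled from transcript abundances (TPM). Per the submitters' processing notes, Trim Galore, kallisto and DESeq2 were used, with no versions. For genome build, annotation and strand setting, the sources used here give nothing. Such estimated counts are not reads per gene, and short transcripts weigh more in them, so no counting interval was computed, and overlapping genes, antisense partners and near-identical copies may share reads.

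Estimated counts were rounded, and all 37403 identifiers matched a RefSeq symbol (GRCr8). Groups came from the sample titles. Genes kept by edgeR's filterByExpr (19923) were tested with edgeR's quasi-likelihood test (edgeR 4.0.16, R 4.3.3), TMM factors, no covariate and Benjamini-Hochberg adjustment, at a threshold of 0.05. SE was taken as the log2 fold change divided by the root of F. Th, Slc6a3, Tph2 and the total count were tested by 2-sided exact permutation of plain log2(CPM + 1). Alternatives used DESeq2 1.42.0, limma 3.58.1, other scalings, filters and covariates. On simulated data with known changes edgeR and limma-voom held the share of false calls near the threshold, while DESeq2 exceeded it, so DESeq2 counts are to be read beside that.

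Named genes were the 24 of smallest p with a symbol and a mean of at least 1 CPM, the 10 largest changes among those without overlap, up to 4 of smallest p per list (31 lists), up to 15 that DESeq2 called, and opioid, dopamine and related genes. LOC identifiers (4154 tested) were counted but not named, and some genes that the rule picks are not reported here. Whether replicate numbers pair the libraries is not given, and the main test took the libraries as unpaired. The members, lists and rule were chosen with earlier results of these data known. The other brain region was not analysed here.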

Additional observations from a re-analysis of the deposited data

Results flagged for a closer look

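In 9 of 174 groups of 5 libraries checked, 1 library stood apart from the other 4 by Dixon's criterion, which chance alone would give in about 1 of 20 groups. In MOR-sired VTA these were Wbp1, at 99.9 CPM in MOR-sired 2 with the next value at 93.0, Rnpepl1, at 37.3 CPM in MOR-sired 4 with the next at 41.7, Oprk1, at 12.5 CPM in MOR-sired 2 with the next at 16.1, Gstm2, at 0.799 CPM in MOR-sired 2 with the next at 1.70, and the small nucleolar RNA Snord71, at 4.34 CPM in MOR-sired 3 with the other 4 listed at 0. In SAL-sired VTA, SAL-sired 2 stood apart for the cortical factor Tbr1, at 16.5 CPM against at most 0.779, and for the activity-dependent gene Egr3, at 10.7 CPM against at most 0.584. SAL-sired 3 stood apart for Cpe, at 1730 CPM with the next at 1570. SAL-sired 5, labelled male, stood apart from its group for Xist, at 78.9 CPM with the next at 0.232.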

How the results depend on the processing

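Results rest on 5 libraries a group, unevenly mixed in sex-linked transcripts, punch content and ribosomal share, and on estimated counts without known read numbers. edgeR called 0 genes under every alternative run with it. Its adjusted p for Cited1 depended on the setting, with 0.0523 among 15414 protein-coding genes with a symbol and 0.814 without MOR-sired 1. limma-voom, run only on all 10 libraries without a covariate, also called 0. DESeq2 called 27 genes of those edgeR kept and 121 when given all genes (71 higher, 50 lower). The count at an unadjusted p under 0.05 ran from 857 to 1541 over all alternatives and from 915 to 1359 without single libraries. The numbers of genes tested differed, so that 857 was 5.32% of 16100 genes and 1541 was 4.98% of 30956 genes. As shares of the genes tested, the alternatives ran from 4.31% to 7.36%, and from 4.51% to 6.69% without single libraries. The count of VTA genes whose groups do not overlap was 282 to 432 without single libraries, 756 without SAL-sired 1 and 2 (chosen after seeing the data) and 3367 without the 4 libraries with Xist, where fewer libraries make overlap less likely.

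The replicate numbers are shared by both groups, and the labels do not say whether they mark pairs. Same-numbered libraries correlated in their deviations at -0.184 to 0.157, and not every library correlated best with its own number. These correlations cannot settle whether the numbers mark pairs. With a replicate block edgeR called 0 genes, counted 859 at an unadjusted p under 0.05 and gave 1 as its smallest adjusted p.

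Without single libraries the marker differences ran from 2.76 to 4.11 for Tph2, 0.12 to 0.42 for Th, -0.051 to 0.27 for Slc6a3 (Slc6a3 level) and -0.084 to 0.14 for the log2 total count. Without the libraries with Xist they were 4.49 for Tph2, 0.036 for Th, -0.025 for Slc6a3 and -0.32 for the total count, in a design of 2 libraries against 4 that cannot pass the threshold (smallest exact p 0.0667).

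Of 2220 gene values under alternatives (86 genes), 2124 kept their direction and their side of the threshold, 44 passed it under DESeq2, and 52 changed sign, 11 of these without a single library. The ranges there were -0.17 to 0.25 for Pdyn, -0.10 to 0.21 for Oprm1, -0.28 to 0.14 for Fos, -3.56 to 0.17 for Tbr1, -0.0067 to 0.17 for Oprk1 and -0.55 to 0.078 for Oprd1. With Tph2 as a covariate, sign changes gave -0.056 for Gch1, -0.10 for Th, -0.16 for Gad1, -0.19 for Drd2, -0.24 for Slc6a3, -0.27 for Ddc, -0.27 for Oprk1, -0.36 for Slc18a2, -0.48 for Slc6a4, -0.75 for Pdyn, 0.026 for Oprl1, 0.12 for Crhr2, 0.23 for Cartpt, 0.29 for Slc17a6 and 0.67 for Oprd1. With Th and Tph2 they gave -0.059 for Drd2, -0.12 for Slc6a3, -0.18 for Ddc, -0.22 for Oprk1, -0.22 for Gad1, -0.27 for Slc18a2, -0.45 for Slc6a4, -0.64 for Pdyn, 0.030 for Oprl1, 0.16 for Crhr2, 0.29 for Slc17a6, 0.31 for Cartpt and 0.67 for Oprd1. With Th alone they gave -0.0033 for Slc6a3, -0.038 for Oprk1 and -0.10 for Pdyn. With Xist status they gave -0.0030 for Oprk1, -0.034 for Slc6a3 and -0.079 for Pdyn. With total-count scaling they gave -0.046 for Pdyn and -0.074 for Oprm1. Without SAL-sired 1 and 2 they gave -0.18 for Oprm1, 0.047 for Prx, 0.10 for Fos and 0.72 for Tbr1, and without the libraries with Xist -0.048 for Oprm1. Apart from the libraries left out, the cause was not tested. Since Tph2 separated the groups without overlap, fits with it as a covariate cannot tell the sire apart from serotonin content. Th and Tph2 got no value in fits where they were covariates themselves.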
